A study of Mus musculus with 19 samples.

Results

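The 6 AP-1 transcription factor genes Fos, Fosb, Fosl2, Jun, Junb and Jund were followed through RNA sequencing and ribosome profiling of mouse hippocampal slices. They were taken by symbol from the deposited tables, 6 of 20436 genes in each, and all 6 passed the filter on low counts in both assays. Slices came from wild-type male mice aged 28 to 42 days and were incubated for 5 min with 100 µM DHPG, an agonist of group 1 metabotropic glutamate receptors, or with artificial cerebrospinal fluid alone (basal). All slices then received cycloheximide at 100 µg/ml, which arrests elongating ribosomes. The RNA libraries numbered 4 basal and 5 DHPG, and the libraries of ribosome-protected fragments (RPFs) numbered 5 basal and 5 DHPG. Per the study's methods each replicate pooled slices of 6 mice, and the slices of batches 1 to 5 kept the CA3 field. The replicate numbers were taken as these batches, which the sample titles do not state. A value is the mean of a mixed tissue, in which fewer cells of a type cannot be told apart from less RNA per cell. Libraries of the same replicate number formed a pair, which left the RNA library DHPG 5 with no basal partner.

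AP-1 is a dimer of basic leucine zipper proteins that binds short palindromic DNA sites. Fos family proteins do not pair with each other and need a Jun partner, whereas Jun family proteins can pair within their own family or with a Fos protein. Fos, Fosb, Jun and Junb are immediate early genes, transcribed in neurons soon after activity by factors already present in the cell, such as SRF with its ternary complex partners and CREB, and their mRNAs are short-lived. Jund is known for a steadier expression.

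The members fall into a Fos and a Jun group by structure. In the GENCODE annotation of mm10, Jun, Junb and Jund each had 1 exon, and Fos, Fosb and Fosl2 each had 4. Fos lies at chr12:85473890-85477273 on the + strand, Fosb at chr7:19302696-19310051 on the - strand and Fosl2 at chr5:32135801-32157842 on the + strand. Jun lies at chr4:95049034-95052222 on the - strand, Junb at chr8:84974484-84978718 on the - strand and Jund at chr8:70698949-70700616 on the + strand. Over an aligned window of 54 residues that holds the basic region and zipper, translated from the GENCODE coding sequences, identity was 77.8 to 88.9% within a family and 27.8 to 37.0% between the families. The 3′ untranslated region was 4653 bases long in Fosl2 and 485 in Junb, against a median of 1024 bases over 12229 genes.

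A few sequences of the kinds through which these genes are known to be controlled are shown, for Jun and Fos in the promoter and for Fos and Fosl2 in the RNA. Promoters of RefSeq (GRCm38.p6, 250 bases before to 50 after the start) were searched on both strands for the CREB site TGACGTCA, the AP-1 site TGACTCA and the sites TGACATCA and TTACCTCA known from the Jun promoter. No member's window held TGACGTCA, which 1.79% of 32851 promoters hold, or TGACTCA, which 5.2% hold. TGACATCA (3.62% of promoters) and TTACCTCA (0.889%) were both found in Jun and in no other member. The shorter TGACG (20.8% of promoters), the first letters of the CREB site, was searched after that result was known and was found in Fos, Fosb and Junb. The capitals mark the matched letters. The Jun sites lie at chr4:95052249-95052278 and chr4:95052368-95052397 on the - strand, and the Fos site shown, the nearer of 2 to the start, at chr12:85473812-85473840 on the + strand.
Jun site 1: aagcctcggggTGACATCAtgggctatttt
Jun site 2: gcagcggagcaTTACCTCAtcccgtgagcc
Fos site: agttccgcccagTGACGtaggaagtccat

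AU-rich elements in the 3′ untranslated region, built on the letters ATTTA, mark many short-lived mRNAs. ATTTA occurred 8 times in Fosl2, 4 times in Fos, 4 times in Jun, 2 times in Junb and 1 time each in Fosb and Jund. The median gene had 1. These counts were not scaled to the length of the region, which had a median of 1024 bases. Its length was 4653 bases in Fosl2, 2145 in Fosb, 1233 in Jun, 815 in Fos, 533 in Jund and 485 in Junb. With no scaling to length either, the longer element TTATTTATT was present in Fos and Fosl2 and in 7.6% of genes. Its 2 occurrences are printed with the element in capitals, from chr12:85477103-85477131 (Fos, + strand) and chr5:32156871-32156899 (Fosl2, + strand) of mm10.
Fos element: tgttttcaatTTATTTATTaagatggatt
Fosl2 element: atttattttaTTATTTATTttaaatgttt

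Several of these RNAs were abundant in slices that had received no agonist. Levels are given as CPM (counts scaled by TMM library size), and levels of different genes are compared only after division by transcript length (RNA) or counted coding length (RPF). Per kb, basal RNA was highest for Jund (198 to 313 CPM per kb, n = 4) and Fos (207 ± 24.6, SD), whose libraries overlapped. Junb (151 ± 24.1), Jun (70.8 ± 14.3), Fosb (27.1 ± 3.44) and Fosl2 (4.26 ± 0.191) followed, and the libraries of no 2 neighbours among these, or of Fos and Junb, overlapped. Fos RNA per kb stood at the 97.9th percentile of 12457 genes and Fosl2 RNA at the 29.3rd.

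The order of ribosome occupancy was different. Basal RPF per kb was highest for Fos (706 ± 54.7 CPM per kb, SD, n = 5), followed by Jun (525 ± 77.8) and Junb (291 ± 23.6). Fosb (224 ± 57.7) overlapped with Junb above it and with Jund (153 ± 20.5) below it, and Fosl2 was lowest at 84.7 ± 12.9. Jund thus led in RNA and came next to last in RPF. In DHPG slices the same orders were found, with the same neighbours overlapping.

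The ratio of RPF to RNA, each per kb and from the same replicate, put the members far apart. Against the median of 12229 genes, the basal log2 ratio was 3.49 ± 0.28 (SD, n = 4) higher for Fosl2, at the 97.6th percentile. Fosb stood 2.11 ± 0.58 higher (90.4th percentile), Jun 2.03 ± 0.53 higher (89.6th) and Fos 0.89 ± 0.11 higher (72.5th). Junb lay at the median gene (0.09 ± 0.29), and Jund lay at -1.57 ± 0.54, a ratio 0.337 times that of the median gene, at the 11.8th percentile. Apart from Fosb and Jun, whose ranges overlapped, each neighbour in this order was separated in 4 of 4 basal and 5 of 5 DHPG replicates with no overlap of ranges.

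**Figure D1:**
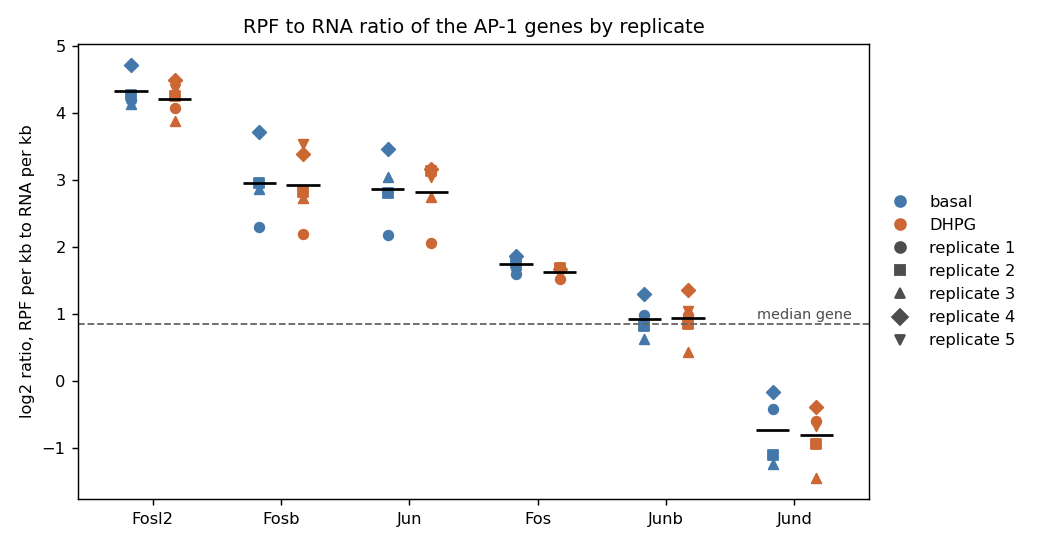
Log2 ratio of RPF per kb to RNA per kb for each member, with 1 point per replicate (4 basal in blue, 5 DHPG in orange), a black line at the group mean and a dashed line at the median of 12229 genes in basal slices (0.85). Fosl2 lies highest, every Jund point lies below the median gene, and Fosb and Jun overlap.

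Ratios also differed within a family. Among the Jun genes, which share the single-exon structure, the mean basal log2 ratio fell from 2.87 ± 0.53 (SD, n = 4) in Jun to 0.93 ± 0.28 in Junb and -0.73 ± 0.52 in Jund. Jund ran from -1.24 in replicate 3 to -0.16 in replicate 4, and its highest value was below the lowest of Junb, 0.63. Without any length the ratio of RPF CPM to RNA CPM was still highest in Fosl2 (2.83) and lowest in Jund (0.35), with Jun at 2.17, Fosb at 1.96, Fos at 1.71 and Junb at 1.03. On that scale the distance above the median gene was smaller, at log2 1.68 for Fosl2, 1.15 for Fosb and 1.30 for Jun, and Jund stood at -1.34. The coding sequence of Jund had a GC content of 70.6%, at the 99.4th percentile of genes with a median of 53.2%. Junb had 64.7%, Jun 63.1%, Fosb 62.0%, Fosl2 61.3% and Fos 58.5%, and the part of GC content in the ratios was not tested. RNA was counted on whole transcripts and RPFs on coding sequence, so a ratio depends on the annotated length of the untranslated regions.

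Fos, the founding member and a standard marker of neuronal activity, had an RNA level of 479, 414, 480.5 and 375 CPM in basal replicates 1 to 4. With DHPG it had 538, 443, 497 and 560.1 CPM in the same replicates and 540.4 CPM in replicate 5. Each pair was higher with DHPG, while the groups overlapped and replicate 4 held both the lowest basal and the highest DHPG value. Fos RPFs were 746, 723, 818, 700.2 and 835 CPM in basal replicates 1 to 5 and 795, 732, 762, 917 and 866 CPM with DHPG. The RPF groups overlapped, and replicate 3 was lower with DHPG.

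Fosb, which also gives rise to the long-lived truncated protein known as deltaFosB, had 104, 107, 115 and 84.1 CPM of RNA in basal replicates 1 to 4 and 129, 133, 112, 130.4 and 88.4 CPM in DHPG replicates 1 to 5. Its groups overlapped through DHPG replicates 3 and 5. Fosb RPFs were 129.6, 211, 211, 279 and 243 CPM in basal slices and 149.6, 238, 188, 346 and 259 CPM with DHPG, so that replicate 1 was lowest and replicate 4 highest in both groups. Fosl2, the gene of the Fos-related antigen Fra-2, ranged from 26.1 to 28.9 CPM in basal RNA and from 25.6 to 34.3 CPM with DHPG. Its lowest DHPG value was that of replicate 5, which has no basal partner. DHPG replicates 1 to 4 of Fosl2 RNA ran from 30.9 to 34.3 CPM, above every basal library. Its RPFs ranged from 68.9 to 98.3 CPM and from 67.2 to 109.7 CPM.

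Jun, the partner of every Fos protein and a target of the JNK kinases, had 279, 229.7, 226 and 168 CPM of RNA in basal replicates 1 to 4 and 329, 201, 248, 233 and 226 CPM in DHPG replicates 1 to 5. The groups overlapped, and replicate 1 was the highest in each. In RPFs the order of replicates turned, with replicate 1 lowest, as Jun had 376, 478, 553, 549 and 525 CPM in basal slices and 406, 521, 490.3, 617 and 550.1 CPM with DHPG. Junb, a weaker activator that can restrain Jun, ranged from 209.7 to 310.1 CPM in basal RNA and from 252 to 320.5 CPM with DHPG, and its RPFs from 259.6 to 308 and from 234 to 349 CPM. Jund had 341, 473, 523 and 331 CPM of RNA in basal slices and 409.6, 495, 559, 406 and 454 CPM with DHPG. Each of its 4 pairs was higher with DHPG, although basal replicates 2 and 3 exceeded DHPG replicates 1, 4 and 5. Jund RPFs ranged from 128 to 172 CPM and from 118 to 181 CPM.

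**Figure D2:**
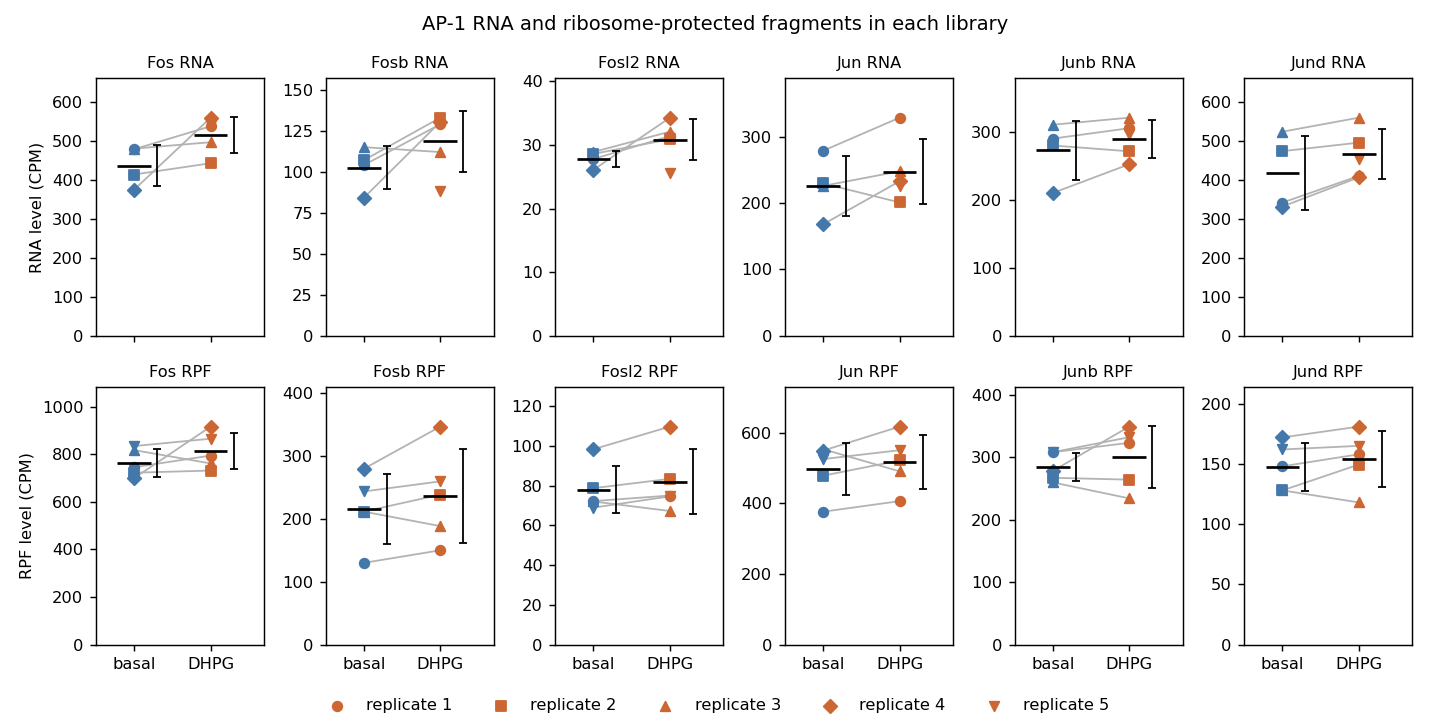
CPM of each member in RNA (top row) and RPF (bottom row), with 1 point per library, grey lines joining the basal and DHPG libraries of a replicate, black lines at the group mean and bars of ±1 SD. Basal and DHPG libraries overlap in each of the 12 panels, in Fosl2 RNA only through DHPG replicate 5, which has no basal partner. The y axes differ between panels and start at 0.

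Whether 5 min of DHPG changed the members was asked with edgeR's quasi-likelihood test with the replicate as a block, adjusted over all tested genes by Benjamini-Hochberg. No member passed in RNA at an adjusted p under 0.01, in RPF at an adjusted p under 0.05, or in RPF relative to RNA (TE) at an adjusted p under 0.05, where 0.00773%, 0.22% and 0% of all genes passed. The RNA estimates were above 0 for all 6, as for 52.1% of all genes, at log2 0.31 ± 0.084 (SE, adjusted p = 0.426) for Fosb, 0.22 ± 0.075 (0.538) for Fos and 0.21 ± 0.10 (0.598) for Fosl2. Jund had 0.18 ± 0.067 (0.555), Jun 0.16 ± 0.08 (0.62) and Junb 0.085 ± 0.069 (0.788). Their median was 0.20, against 0.0068 over all genes. At an unadjusted p under 0.05, 5 members were higher in RNA, where 5.2% of all genes were, and 3 members (Fos, Fosl2 and Jund) were higher in every pair, where 8.67% of all genes were.

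Replicate 4 had the largest RNA difference for each member. Fosb differed there by 0.63 on the log2 scale, Fos by 0.58 and Jun by 0.47, against a median gene at 0.019. Without replicate 4 the fitted RNA change was 0.20 for Fosb, 0.10 for Fos, 0.14 for Fosl2, 0.063 for Jun, 0.023 for Junb and 0.14 for Jund, and the median of the 6 was 0.12.

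In RPFs the 6 estimates were also above 0 (51.4% of all genes were) and smaller, from log2 0.055 ± 0.035 (SE) for Jun to 0.11 ± 0.04 for Fosb, with adjusted p of 0.598 and 0.272. Their median was 0.059, against 0.0031 over all genes. Fos and Fosb were higher at an unadjusted p under 0.05, where 6.55% of all genes were. No member was higher in every pair, where 5.16% of all genes were, since replicate 3 was lower with DHPG for all 6 (from -0.17 for Jun to -0.10 for Fos and Fosl2). Without replicate 3, Fosb passed in RPF at log2 0.19 (adjusted p = 0.00354, over all alternatives 0.00354 to 1), and the median of the 6 was 0.12. Without replicate 4 that median was 0.028, and Junb stood at -0.0033.

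The TE estimates were below 0 for all 6, from -0.19 ± 0.10 (SE, adjusted p = 0.732) for Fosb to -0.02 ± 0.079 (0.975) for Junb. No member reached an unadjusted p under 0.05, against 860 of 12691 genes. Fos, Fosb and Fosl2 were lower in each of the 4 pairs with both assays, as 6.94% of all genes were. The 95% intervals ran from -0.39 to 0.0079 for Fosb and from -0.18 to 0.14 for Junb, so shifts of these sizes are not told apart from 0 with these replicates. Junb was above 0 without replicate 3, at 0.023.

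**Figure D3:**
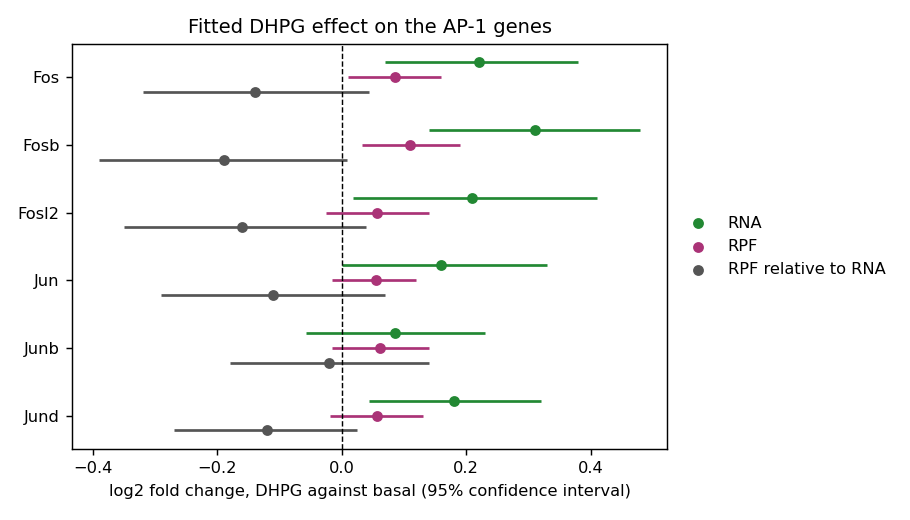
Fitted log2 fold change of DHPG against basal for each member in RNA (green), RPF (purple) and RPF relative to RNA (grey), with 95% confidence intervals not adjusted for the number of genes. RNA and RPF points lie to the right of 0 and TE points to the left, and no member passed after adjustment over all genes.

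The replicates differed from each other more than the treatments did for some members. After averaging the treatments, Fosb RPFs differed 2.23-fold between replicate 4 and replicate 1, with an SD of 0.43 on the log2 scale against a median of 0.10 for the 500 genes nearest in RPF level, of which 99.6% had a smaller SD. Fosl2 (95.2%), Jun (92.0%), Jund (91.0%) and Junb (84.4%) also lay high in this comparison, and Fos did not (32.6%). In RNA the same measure put Fosb at 10.4%, Fos at 20.2% and Fosl2 at 0%, with a replicate SD of 0.018 for Fosl2, and Junb at 52.6%, Jun at 73.4% and Jund at 73.6%. Jun differed 1.53-fold between replicates in RNA and 1.49-fold in RPF. The high RPF spread of Fosb was not seen in its RNA, which had 4 paired replicates.

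Across the RPF libraries Fosb and Jun varied together. Over these 10 libraries their log2 CPM correlated at Pearson r = 0.95, and among 13207 genes Jun ranked 2 by likeness to Fosb and Fosb ranked 3 by likeness to Jun. This was the closest of the 15 pairs of members in RPF. For the other members the closest AP-1 gene ranked far lower, at 370 for Fos, 514 for Fosl2, 429 for Junb and 566 for Jund. In RNA the closest member to Fosb was Fosl2 (r = 0.88, 9 libraries, rank 13 of 12934 genes) and that to Jun was Junb (r = 0.70, rank 231). Over the 15 pairs of members r lay between 0.046 and 0.88 for RNA and between 0.021 and 0.95 for RPF. These libraries share replicate numbers and treatments, so the coefficients are descriptions only.

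The genes whose libraries followed each member most closely were mostly not AP-1 genes. They were picked as the highest of all genes tested, over 9 RNA or 10 RPF libraries, so their coefficients are descriptions only. In RPFs the 3 nearest were Hs6st1, Jun and Klf4 to Fosb (r = 0.955, 0.95 and 0.949) and Id1, Pla2g16 and Fosb to Jun (0.957, 0.957 and 0.95). Nearest to Fos were Lrrn4, Nt5dc1 and Ttc38 (0.903 to 0.918), to Fosl2 Nmnat2, Pdzd4 and Stx16 (0.952 to 0.972), to Junb Nudt14, Lmna and Spsb3 (0.963 to 0.969) and to Jund Rpusd1, Atp6v1g2 and Eid2b (0.97 to 0.979). Lrrn4 and Nt5dc1 were scarce, at means of 1.88 and 1.87 CPM in RPF. In RNA the nearest to Jund were Fam171a2, Aes and Tmem259 (0.988 to 0.99), to Junb S1pr5, Notch2 and Slc7a10 (0.96 to 0.962) and to Jun Cbs, Syt11 and Zfp521 (0.927 to 0.933). Bmp2k, Pmm2 and Ciart were nearest to Fos (0.918 to 0.923), Tsc22d1, Ciz1 and Spred3 to Fosb (0.915 to 0.92) and Nfkb2, Hira and Camk2a to Fosl2 (0.911 to 0.948). Of these, Pmm2 was scarce, at a mean of 4.9 CPM in RNA.

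The genes around AP-1 were read as lists of known roles, beside all genes tested, of which 52.1% were above 0 in RNA and 51.4% in RPF. Of the 14 SRF, ternary complex and CREB factors that act on the Fos promoter, 11 were above 0 in RNA and 9 in RPF, and none passed. Their medians were 0.13 in RNA and 0.025 in RPF, and the smallest p in RNA were those of the SRF coactivator Mkl1 (0.23 ± 0.083, SE) and the ternary complex factor Elk1 (0.18 ± 0.075). Of 17 MAP kinase pathway genes, 7 were above 0 in RNA and 1 in RPF, with an RPF median of -0.029 and none passing. The JNK genes Mapk10 (-0.10 ± 0.031, adjusted p = 0.189) and Mapk9 (-0.11 ± 0.041, 0.299) were lower in RPF in 5 of 5 pairs, as 4.72% of all genes were. The remaining JNK gene, Mapk8, stood at -0.0051 ± 0.037 in RPF and was higher in 3 of 5 pairs. Mapk10 RNA was higher in 4 of 4 pairs (0.087 ± 0.068). The ERK gene Mapk3 had 0.23 ± 0.075 in RNA (adjusted p = 0.538, higher in 3 of 4 pairs). In RPF Mapk3 had -0.024 ± 0.037 and was higher in 1 of 5 pairs.

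Among 15 genes of Fos and Jun mRNA or protein turnover, 8 were above 0 in RNA and 4 in RPF, and none passed. Zfp36l2 and Zfp36l1 bind AU-rich elements such as those printed for Fos and Fosl2 and promote mRNA decay. They had RNA estimates of 0.47 ± 0.13 (SE, adjusted p = 0.429) and 0.41 ± 0.12 (0.527), both higher in 4 of 4 pairs. Zfp36, of the same family, had 0.23 ± 0.11 in RNA (0.617) and was higher in 2 of 4 pairs. Cops5, which codes for the Jun-binding subunit of the COP9 signalosome, was lower in 4 of 4 RNA pairs (-0.19 ± 0.076, 0.558). Among the other AP-1 and bZIP genes, 15 of 19 could be tested, with medians of 0.11 in RNA and 0.029 in RPF and none passing. Fosl1, the remaining Fos family gene, was scarce at 1.97 ± 0.29 CPM in basal RNA (SD, n = 4), and Batf, Batf2, Batf3 and Nrl were below the filter.

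Of 20 immediate early genes outside AP-1, 17 were above 0 in RNA and 19 in RPF. The median RNA change of 0.20 equalled that of the AP-1 members, and the median RPF change was 0.077. Egr1, an immediate early zinc finger factor, had 0.38 ± 0.081 in RNA (SE, adjusted p = 0.145, higher in 4 of 4 pairs), and Cyr61, a secreted matrix protein, had 0.20 ± 0.048 in RPF (adjusted p = 0.0553). Klf6, another zinc finger factor, passed in RPF (0.17 ± 0.039, adjusted p = 0.0328, 5 of 5 pairs), and it did not pass without any 1 of the 5 replicates. Of 15 known AP-1 target genes, 7 of 13 tested were above 0 in RNA (median 0.029) and 10 of 14 tested in RPF (median 0.052). Among them Mt2, a metal-binding metallothionein, rose in RPF (0.19 ± 0.031, adjusted p = 0.000796, 5 of 5 pairs, from 356 ± 43.2 to 406 ± 40.8 CPM, SD, n = 5 each). Mt2 passed with each replicate left out, while Scg2, the secretogranin II gene, and Nptx2, a neuronal pentraxin, had 0.11 ± 0.029 and 0.16 ± 0.049 and did not pass.

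**Figure D4:**
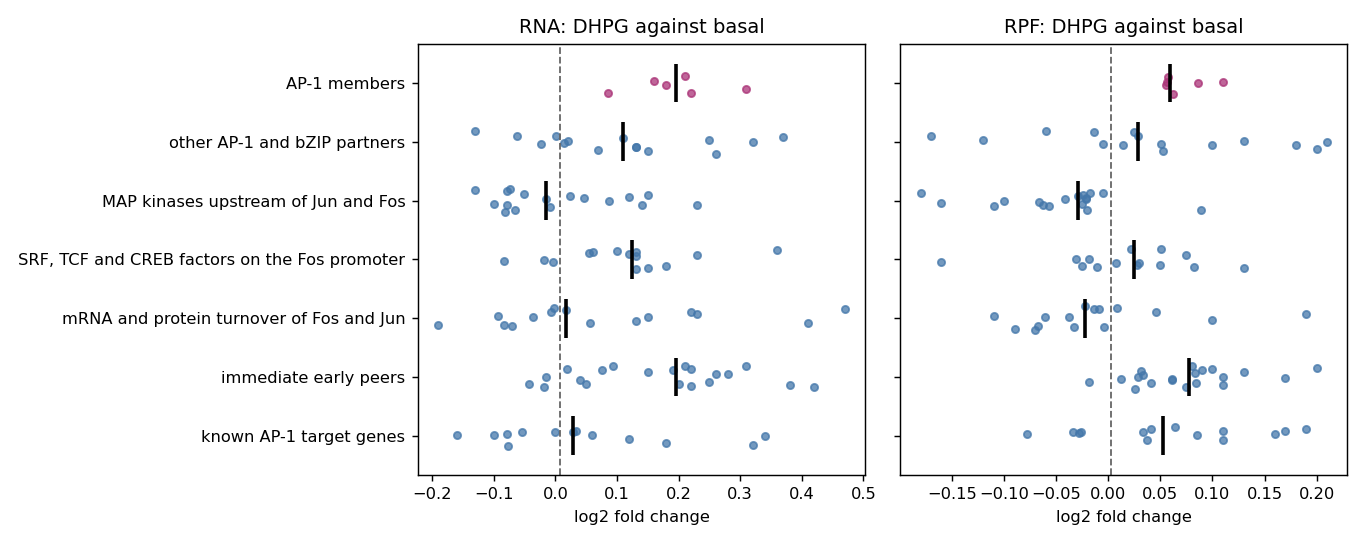
Fitted log2 fold change of DHPG against basal for the 6 AP-1 members and the tested genes of 6 lists in RNA (left) and RPF (right, on a narrower scale), with 1 point per gene, a black bar at each list's median and a dashed line at the median of all genes tested. The AP-1 members and the immediate early peers share a median of 0.20 in RNA, and all but 1 of the 17 MAP kinase genes lie below 0 in RPF.

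RNA libraries held 4870813 to 7793244 counts and RPF libraries 5692064 to 22092434. Markers of neurons, CA1 and dentate gyrus were present in every library, as were those of glia. The summed level of 6 thalamus markers ran from 73.5 to 98.3 CPM in basal RNA and from 88.3 to 123 with DHPG, and was higher with DHPG in 4 of 4 RNA pairs (median log2 difference 0.41) and in 4 of 5 RPF pairs (0.42). The sum of 5 oligodendrocyte markers, 2041 to 4435 CPM in basal RNA and 2352 to 5237 with DHPG, was higher in 4 of 4 RNA pairs (0.17) and 4 of 5 RPF pairs (0.13). In replicate 4, which had the largest RNA difference of each member, the sums of 5 neuron markers and 4 CA1 markers also had their largest RNA differences, 0.20 and 0.26 on the log2 scale, against -0.02 and 0.034 in RPF. The sum of 5 microglia markers differed there by 0.021 in RNA and 0.31 in RPF. None of these markers was at 0, and their part in the member differences was not tested.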

How the data were processed

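RNA and RPF levels were measured in 19 libraries, grouped by the treatment and assay in the labels. Per the labels and the study's methods, the authors trimmed reads with cutadapt, aligned them with Bowtie2 and TopHat2 and counted them with RSEM on mm10, RNA on whole transcripts and RPFs on coding sequence without the first and last 30 bases. The deposited values are expected counts per gene, whole in both files, to which no batch correction was added for the main tests. In the tables, 12 columns of per-sample values match no sample analysed here and were not used. How RSEM splits reads between paralogs, overlapping or antisense genes cannot be undone.

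R 4.3.3 with edgeR 4.0.16 (filterByExpr, TMM, quasi-likelihood test, replicate block), limma 3.58.1, DESeq2 1.42.0 and sva 3.50.0 was used, and adjusted p are edgeR's, Benjamini-Hochberg over all genes tested, unless another tool is named. The thresholds of 0.01 for RNA and 0.05 for RPF follow the study, and TE was the interaction of assay and treatment. The RPF side of TE drew on 5 pairs and the RNA side on 4. Without replicate 5 the member median in TE was -0.11, against -0.13. The filter kept 12935 genes in RNA, 13208 in RPF and 12691 in both. A prior count of 2 entered log2 CPM. The replicate numbers were taken as the study's batches, which the sample titles do not state. The deviations of same-numbered libraries from their group means correlated at 0.308 to 0.741 in RNA (4 pairs) and 0.259 to 0.523 in RPF (5 pairs). The numbers were taken to pair the libraries. Libraries of different numbers were not compared in this way, so these correlations cannot show that the pairing is right. With the replicate block, p-values set the DHPG difference against variation between replicate pairs, each made from pools of mice. edgeR estimates that variation partly from all genes tested. A gene's p-value thus does not rest on the spread of its own pairs alone. Gene lengths and sequences came from GENCODE M21 (96.0% of genes matched by symbol) and promoters from RefSeq. Named genes were the members, list genes past the threshold or among the 3 smallest unadjusted p of a list, and the 3 genes with the highest Pearson r to each member. Some other list genes were named beside these. The members and lists were chosen with earlier results of these data known. The steps were tested on simulated counts. Alternatives were DESeq2's size factors, no filter, a minimum of 10 counts, no block, DESeq2, ComBat (0.5 added) before DESeq2, other thresholds, no length correction and each replicate left out.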

Additional observations from a re-analysis of the deposited data

How the results depend on the processing

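No member passed with DESeq2 and the replicate block. DESeq2 gave no adjusted p for Fosl2 in RPF with the block and in RNA after ComBat, and of the other 190 member estimates under the alternatives 184 kept their direction and side of the threshold. ComBat followed by DESeq2 was also the order of the study, which used more wild-type replicates. With these steps Fosb passed in RNA (0.29, adjusted p = 0.00469, over all alternatives 0.00469 to 1) and RPF (0.12, adjusted p = 0.00762, over all alternatives 0.00354 to 1). Jund passed with them in RNA (0.17, adjusted p = 0.00374, over all alternatives 0.00374 to 1). Fos had 0.22 in RNA with the same steps (adjusted p = 0.0146), which is under 0.05 and not under 0.01. After ComBat, DESeq2 was run with no replicate block. Without replicate 3 Fosb passed in RPF (0.19). Junb reversed to -0.0033 in RPF without replicate 4, to 0.023 in TE without replicate 3 (lowest -0.041), and to -0.031 in its basal ratio without replicate 4 (highest 0.20). The pairing mattered for the counts of all genes called: with no replicate block 0 genes passed in RNA and 0 in RPF, against 1 and 29, and Klf6 and Mt2 did not pass. DESeq2 with the block gave no adjusted p for Klf6, which passed after ComBat (adjusted p = 0.000755, over all alternatives 0.000755 to 1). With no filter 7, 96 and 3 genes passed in RNA, RPF and TE, with at least 10 counts 0 in RNA, with DESeq2 and the block 0 in RNA, with ComBat 100 in RNA and 427 in RPF, and at an adjusted p under 0.01 8 in RPF. With each replicate left out, calls in RNA lay between 0 (without replicate 3) and 22 (without replicate 2), in RPF between 3 (without replicate 2) and 71 (without replicate 3) and in TE between 0 and 8 (without replicate 2). The member medians then ran from 0.12 to 0.25 in RNA, 0.028 to 0.12 in RPF and -0.20 to -0.088 in TE, and the median basal ratio from 1.34 to 1.60. Without length correction that median was 1.05, against 1.46. The causes were not tested. With 4 RNA pairs, changes near the size of the SE were not detectable. Larger ones could also fail to pass, as Fosb RNA did in the main test at 0.31 ± 0.084 (SE, adjusted p = 0.426).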

Other observations

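In 48 groups of member values (4 or 5 libraries each), 0 held a library that stood apart by Dixon's criterion, where chance gives about 2.4. The summed RNA was 1482 ± 206 CPM (SD, n = 4) in basal and 1666 ± 84.2 CPM (n = 5) in DHPG libraries, and the summed RPF 1985 ± 148 and 2104 ± 277 CPM (n = 5 each).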
